A study of Mus musculus with 6 samples.

Results

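A set of 10 genes that carry fatty acids into cardiomyocytes (CMs) and bind them there was examined in CMs that lack *Cpt1b*: *Lpl*, *Gpihbp1*, *Angptl4* and *Vldlr*, which handle lipoprotein triglyceride outside the cell, *Cd36* and *Slc27a1*, which act at entry, *Fabp3*, *Fabp4* and *Fabp5*, which bind fatty acids in the cytosol, and the mitochondrial carrier *Ucp3*. They were listed by name for these roles, with earlier results of these data known, and the list uses no threshold on a measured value. All 10 are among the 16448 genes of the table, and all 10 belonged to the 11364 genes that were tested. RNA-seq was done on ventricular CMs of 3 CtrlCre and 3 Cpt1bcKO mice on a C57BL/6 background, 8 to 12 weeks old. Mice of both groups carried the *αMHC-Cre* transgene, which acts in CMs from before birth, and only the Cpt1bcKO mice also carried the floxed *Cpt1b* alleles. The CMs were prepared by enzymatic perfusion and a slow spin, without a sort, so other cells of the heart can be present. Each sample comes from a separate mouse according to the study's methods, and samples are called by group and number.

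The adult heart takes most of its energy from long-chain fatty acids. Lipoprotein lipase frees them from circulating triglyceride on the capillary wall, membrane proteins such as CD36 help them into the CM, and binding proteins carry them through the cytosol. Carnitine palmitoyltransferase, the product of *Cpt1b* in muscle, then commits them to the mitochondria, and PPAR transcription factors, which fatty acids activate, set the level of many genes of this route.

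The values are normalized counts, that is, reads on a gene divided by a factor for each sample. Without mitochondrial-encoded and rRNA genes they summed to between 3146414 and 3551692 in the 6 samples, whereas the mitochondrial rRNA gene *mt-Rnr2* took 61.8% to 80.8% of the full sums, most in Cpt1bcKO 3. Only in Cpt1bcKO 3 could the worth of a single read be resolved from the spacing of low values, at 1.29. This puts about 24500000 reads on all genes of that sample, most of them on *mt-Rnr2*. *Cpt1b* itself had 1861, 893 and 1443 normalized counts in CtrlCre 1, 2 and 3 and 211, 353 and 285 in the Cpt1bcKO samples, without overlap. Its log2 difference was −2.27 (standard error 0.267, adjusted p = 0.00338 from limma). *Cpt1b* shares 2744 of its 3372 annotated exonic bases with *Gm44502* on the same strand in GENCODE vM21, and since reads on several genes were left out of counting, which of its reads were counted is uncertain. *Xist* and Y-linked genes showed that sample 1 of each group came from a female and samples 2 and 3 from males, which the labels do not give, and values within sex are therefore set beside the pooled ones. All 8 CM markers were detected in every sample, *Myh6* among them, and summed to 192967 to 325477.

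No gene of the set passed the threshold of an adjusted p of 0.05 in limma, against 1.57% of all genes tested (0.66% higher and 0.906% lower in Cpt1bcKO CMs). The adjusted p ranged from 0.355 for *Angptl4* to 0.969 for *Fabp4*. One gene, *Angptl4*, had an unadjusted p under 0.05, a level that 13.9% of all genes reached. In none of the 10 were the groups apart, whereas the groups did not overlap for 18.7% of all genes, 9.13% with Cpt1bcKO above and 9.6% below. The median log2 difference was 0.0035 for the 10 genes, with 5 above and 5 below 0, and −0.0013 for all genes tested. When the samples were scaled to their total without mitochondrial and rRNA genes, which moved the median of all genes to 0.11, 8 of the 10 lay above 0, with a median of 0.12. For 7 genes the 95% interval of the difference lay within a factor of 2 in either direction. The exceptions were *Gpihbp1*, *Angptl4* and *Ucp3*.

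**Figure D1:**
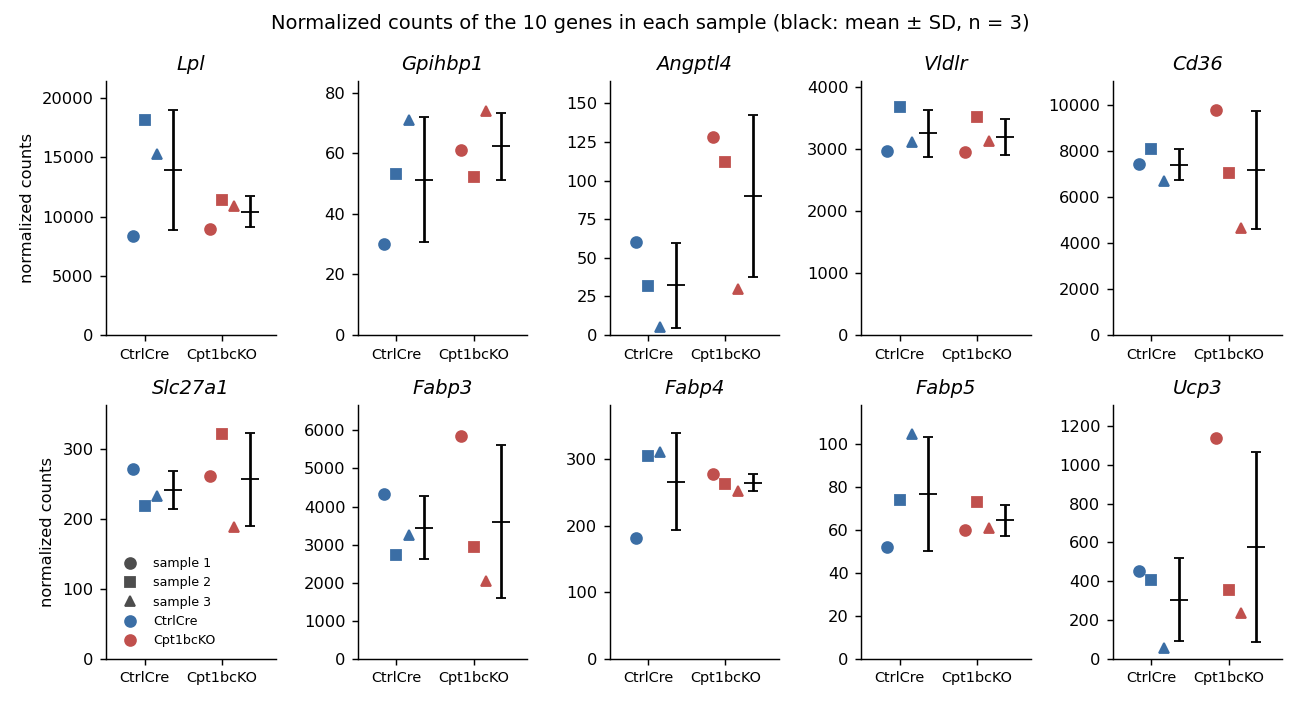
Normalized counts of each of the 10 genes on linear axes from 0, with CtrlCre samples in blue and Cpt1bcKO samples in red, a marker shape for each sample number and the mean ± SD of 3 samples in black. The groups overlap in every panel, and *Angptl4* and *Ucp3* are lowest in sample 3 of each group.

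*Lpl* (chr8:68880491-68906934, plus strand, GRCm38) encodes lipoprotein lipase, which CMs make and release. It had 8360, 18123 and 15323 normalized counts in CtrlCre 1, 2 and 3 and 8978, 11414 and 10896 in Cpt1bcKO 1, 2 and 3. The female control was the lowest of the 6 samples, and it placed the control range around the whole Cpt1bcKO range. Means were 13935 ± 5027 and 10429 ± 1283 (SD, n = 3). The log2 difference was −0.35 (standard error 0.261, 95% interval −0.93 to 0.23, adjusted p = 0.593 from limma). Within females the difference was 0.10. Within males it was −0.58, a ratio of 0.667, and both Cpt1bcKO males lay below both control males, as was the case for 24.4% of all genes. A fit to the 4 male samples gave an adjusted p of 0.0663 in limma. Without CtrlCre 1 the log2 difference was −0.68 (adjusted p = 0.176), and without CtrlCre 2 it was −0.13 (adjusted p = 0.876), with the other samples left out in turn between these values.

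*Gpihbp1* (chr15:75596628-75599481, plus strand) encodes the anchor that carries lipoprotein lipase across the capillary endothelial cell and holds it there. Its normalized counts were 30, 53 and 71 in the CtrlCre samples and 61, 52 and 74 in the Cpt1bcKO samples. Again CtrlCre 1 was the lowest sample. The means of 51.3 ± 20.6 and 62.3 ± 11.1 (SD, n = 3) gave a log2 difference of 0.34 (standard error 0.315, 95% interval −0.36 to 1.04, adjusted p = 0.679 from limma). The female difference was 1.0 and the male difference 0.02, and the pooled value was 0.01 without CtrlCre 1 and 0.62 without CtrlCre 3.

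*Angptl4* (chr17:33773750-33781575, minus strand) encodes a secreted inhibitor of lipoprotein lipase and is a well-known PPAR target. It had 60, 32 and 5 normalized counts in the CtrlCre samples and 128, 112 and 30 in the Cpt1bcKO samples. Cpt1bcKO 1 and 2 lay above all controls, and Cpt1bcKO 3 lay below 2 of them. Of the 10 genes it had the largest difference, with means of 32.3 ± 27.5 and 90.0 ± 52.6 (SD, n = 3). The log2 difference was 1.74 (standard error 0.778, 95% interval 0.02 to 3.47), with an unadjusted p of 0.0482 and an adjusted p of 0.355 from limma. It was 1.08 in females and 2.07 in males, and with sex in the fit the adjusted p was 0.131. Without CtrlCre 3, which had the value of 5, the log2 difference was 0.77 (adjusted p = 0.647), and it was 2.45 without CtrlCre 1 (adjusted p = 0.245).

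*Vldlr* (chr19:27217020-27254231, plus strand) encodes the very low density lipoprotein receptor, which binds triglyceride-rich particles. Normalized counts were 2972, 3682 and 3110 in the CtrlCre samples and 2950, 3508 and 3128 in the Cpt1bcKO samples. The ranges of the groups nearly coincided. Means were 3255 ± 376 and 3195 ± 285 (SD, n = 3), and the log2 difference of −0.02 had the narrowest 95% interval of the 10 genes, from −0.34 to 0.30 (standard error 0.145, adjusted p = 0.963 from limma). The differences within females (−0.01) and males (−0.03) were as small. Its sign turned to 0.09 with scaling to the total and to 0.02 with upper quartile scaling.

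*Cd36* (chr5:17781690-17888747, minus strand) encodes the fatty acid translocase of the CM membrane. It had 7443, 8060 and 6690 normalized counts in the CtrlCre samples and 9764, 7031 and 4669 in the Cpt1bcKO samples. The Cpt1bcKO samples held both the highest and the lowest value, with a coefficient of variation of 35.6% against 9.27% in the controls. The means were 7398 ± 686 and 7155 ± 2550 (SD, n = 3). The log2 difference of −0.11 (standard error 0.237, 95% interval −0.63 to 0.42, adjusted p = 0.879 from limma) was made up of 0.39 in females and −0.36 in males, and it was 0.17 without Cpt1bcKO 3.

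*Slc27a1* (chr8:71568882-71586708, plus strand) encodes FATP1, a transport protein that also couples fatty acids to coenzyme A. It had 272, 219 and 233 normalized counts in the CtrlCre samples and 261, 322 and 189 in the Cpt1bcKO samples, with both extremes again among the latter. Means of 241 ± 27.5 and 257 ± 66.6 (SD, n = 3) gave a log2 difference of 0.06 (standard error 0.207, 95% interval −0.39 to 0.52, adjusted p = 0.923 from limma). It was −0.06 in females and 0.13 in males.

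*Fabp3* (chr4:130308595-130315463, plus strand) encodes the fatty acid-binding protein of heart and muscle. It had 4340, 2730 and 3258 normalized counts in the CtrlCre samples and 5854, 2925 and 2034 in the Cpt1bcKO samples. The female was the highest sample of each group. Means were 3443 ± 821 and 3604 ± 1999 (SD, n = 3). The log2 difference was −0.05 (standard error 0.328, 95% interval −0.78 to 0.68, adjusted p = 0.967 from limma), with 0.43 in females and −0.29 in males. *Fabp3* shares 81 exonic bases with *Zcchc17* on the opposite strand, which had 84 to 149 normalized counts, and the copy *Fabp3-ps1* had 62 to 93. How reads were divided among them is uncertain, but both lie far below *Fabp3*.

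*Fabp4* (chr3:10204088-10208576, minus strand) encodes the binding protein of adipocytes and capillary endothelial cells. It had 182, 305 and 311 normalized counts in the CtrlCre samples and 278, 263 and 252 in the Cpt1bcKO samples. The 3 Cpt1bcKO samples lay close together, inside the gap between CtrlCre 1 and the other controls. Means were 266 ± 72.8 and 264 ± 13.1 (SD, n = 3) and the log2 difference was 0.03 (standard error 0.213, 95% interval −0.44 to 0.50, adjusted p = 0.969 from limma). It was 0.61 in females and −0.26 in males, with both Cpt1bcKO males below both control males, and without CtrlCre 1 it was −0.22.

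*Fabp5* (chr3:10012548-10016607, plus strand) encodes the epidermal-type binding protein, which many tissues make. It had 52, 74 and 105 normalized counts in the CtrlCre samples and 60, 73 and 61 in the Cpt1bcKO samples, so that the controls again spanned all others. Means were 77.0 ± 26.6 and 64.7 ± 7.23 (SD, n = 3). The log2 difference was −0.20 (standard error 0.268, 95% interval −0.79 to 0.40, adjusted p = 0.792 from limma), with 0.20 in females and −0.40 in males. The male samples did not overlap here either. Thus *Lpl*, *Fabp4* and *Fabp5*, 3 of the 10 genes, were lower in both Cpt1bcKO males than in both control males, and none of the 10 was higher in both. Of all genes, 24.4% were likewise lower in both Cpt1bcKO males, and male samples did not overlap in either direction for 47.1%.

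*Ucp3* (chr7:100472991-100486432, plus strand) encodes a carrier of the inner mitochondrial membrane in muscle whose expression is known to follow fatty acid supply. It had 450, 407 and 58 normalized counts in the CtrlCre samples and 1136, 354 and 237 in the Cpt1bcKO samples. A single Cpt1bcKO sample, the female, lay above all controls, and CtrlCre 3 lay far below every other sample. The means of 305 ± 215 and 576 ± 489 (SD, n = 3) gave a log2 difference of 1.05 (standard error 0.741, 95% interval −0.59 to 2.69, adjusted p = 0.573 from limma). It was 1.33 in females and 0.91 in males, and the adjusted p was 0.284 with sex in the fit. The log2 difference was 0.09 without CtrlCre 3, 0.39 without Cpt1bcKO 1 and at most 1.56 when another sample was left out. *Gm10603*, on the opposite strand, had 4 to 15 normalized counts.

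**Figure D2:**
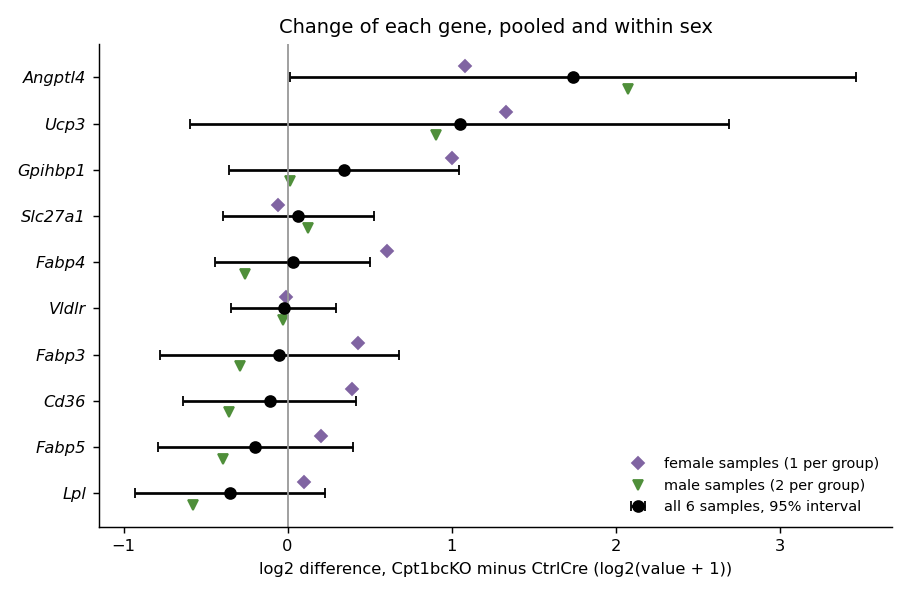
Log2 difference between Cpt1bcKO and CtrlCre of each gene on the log2(value + 1) scale, with all 6 samples and the 95% interval from limma in black, the female samples (1 per group) as purple diamonds and the male samples (2 per group) as green triangles. All intervals but that of *Angptl4* (0.02 to 3.47) include 0, and *Lpl*, *Cd36*, *Fabp3*, *Fabp4* and *Fabp5* lie above 0 in females and below 0 in males.

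For *Lpl*, *Cd36*, *Fabp3*, *Fabp4* and *Fabp5* the female difference was thus above 0 and the male difference below 0. The female control was the lowest of all samples for *Lpl*, *Fabp4* and *Fabp5*, and the Cpt1bcKO female the highest for *Cd36* and *Fabp3*. How many of all genes had such opposite signs was not counted. With 1 female in each group the female difference has no replicate, and a difference between the sexes was not tested. With sex as a covariate no gene of the set passed the threshold in limma.

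Per kilobase of the principal coding transcript in GENCODE vM21, *Fabp3* had the highest level in CtrlCre CMs, 4183 ± 997 normalized counts per kilobase (SD, n = 3). It was followed by *Lpl* with 3386 ± 1222, *Cd36* with 2176 ± 202 and, well below, *Vldlr* with 408. Lower levels per kilobase were found for *Fabp4* (297), *Ucp3* (125), *Slc27a1* (86.3), *Fabp5* (78.0), *Gpihbp1* (62.2) and *Angptl4* (9.77). The control ranges of *Fabp3*, *Lpl* and *Cd36* overlapped from one to the next, as did those of *Ucp3*, *Slc27a1*, *Fabp5* and *Gpihbp1*. The order of neighbours inside these groups is thus not fixed by the data. *Fabp3* (3317 to 5273) lay above *Cd36* (1968 to 2371) in all controls. *Cd36* and *Vldlr*, *Vldlr* and *Fabp4*, *Fabp4* and *Ucp3*, and *Gpihbp1* and *Angptl4* were apart in the controls. In Cpt1bcKO CMs the order of the means was the same except that *Gpihbp1* (75.6) stood above *Fabp5* (65.5). The transcript length was taken after the data were seen because some annotated exons span introns. With all annotated exons *Cd36* stood above *Lpl*, and *Fabp4* fell to 59.3 per kilobase, below *Ucp3* with 97.3.

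**Figure D3:**
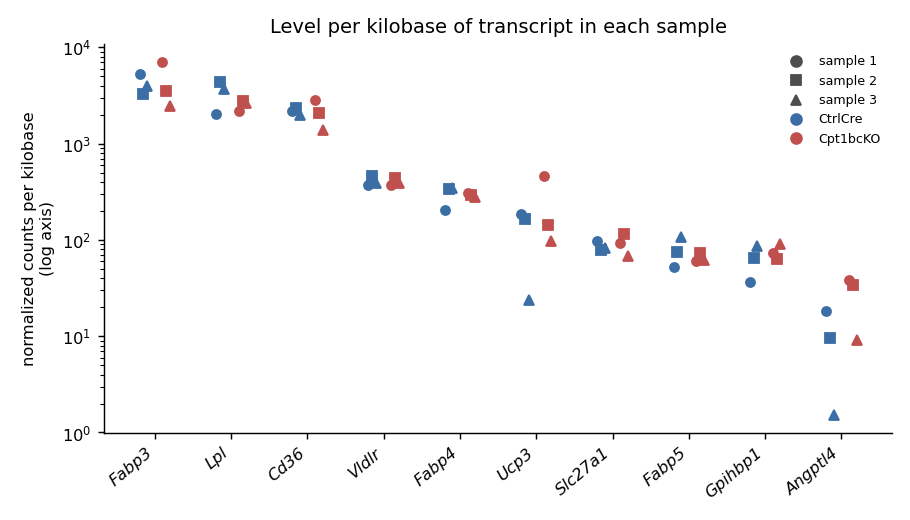
Normalized counts per kilobase of principal transcript on a log axis, in each CtrlCre (blue) and Cpt1bcKO (red) sample, with genes ordered by the CtrlCre mean. The levels run from 4183 for *Fabp3* to 9.77 for *Angptl4* in the controls, and *Angptl4* and *Ucp3* show the widest scatter between samples.

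RefSeq promoters (GRCm38.p6) were at hand for 5 of the 10 genes, *Ucp3*, *Cd36*, *Fabp3*, *Slc27a1* and *Vldlr*. Those of *Ucp3* and *Cd36* are shown because only they hold a match to AGGTCA, the half-site of nuclear receptors such as the PPARs, and that of *Fabp3* because this gene had the highest level per kilobase. Each sequence is the 250 bases before a RefSeq transcript start, 5′ to 3′ on the strand of the gene. For *Ucp3* this start is that of the gene as given above, whereas for *Cd36* and *Fabp3* it lies inside the span given above, whose annotation starts further upstream. Capitals mark AGGTCA or its reverse complement TGACCT.
*Ucp3*, chr7:100472741-100472990, plus strand: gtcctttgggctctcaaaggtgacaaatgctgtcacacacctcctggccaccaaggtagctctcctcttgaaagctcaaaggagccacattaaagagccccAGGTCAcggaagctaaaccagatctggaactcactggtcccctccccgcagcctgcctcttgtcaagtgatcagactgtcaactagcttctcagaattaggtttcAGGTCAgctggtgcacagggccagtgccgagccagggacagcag
*Cd36*, chr5:17835897-17836146, minus strand: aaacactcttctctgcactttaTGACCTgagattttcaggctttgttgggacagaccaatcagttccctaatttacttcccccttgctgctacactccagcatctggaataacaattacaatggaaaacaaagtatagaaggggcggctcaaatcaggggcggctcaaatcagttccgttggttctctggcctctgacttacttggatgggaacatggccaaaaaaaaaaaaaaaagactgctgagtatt
*Fabp3*, chr4:130308488-130308737, plus strand: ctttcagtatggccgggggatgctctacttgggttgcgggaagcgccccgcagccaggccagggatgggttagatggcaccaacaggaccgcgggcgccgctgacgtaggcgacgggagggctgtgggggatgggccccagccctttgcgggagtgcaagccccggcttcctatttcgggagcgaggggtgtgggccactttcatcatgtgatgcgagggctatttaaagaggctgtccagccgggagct

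The *Ucp3* window holds 2 matches, whose first bases lie 149 and 44 bases before the start, and the *Cd36* window holds 1, at 228 bases. A match on either strand was found in 4607 of 32851 mouse promoter windows of this length (14.0%), and at least 2 matches in 446 (1.36%). None of the windows of these genes holds DR1, a direct repeat of this half-site with 1 base between the copies, which occurred in 11 of 32851 windows (0.0335%). A match describes these letters and shows no binding.

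The scatter of *Angptl4* and *Ucp3* within groups was shared by genes that respond to PPAR factors. Of 26 tested genes of such a list, CtrlCre 3 was the lowest control for 25, against 31.8% of all genes tested, and Cpt1bcKO 3 was the lowest Cpt1bcKO sample for 25, against 34.0%. CtrlCre 1 was the highest control for 21 and Cpt1bcKO 1 the highest Cpt1bcKO sample for 21, against 39.0% and 37.1% of all genes. *Angptl4* and *Ucp3*, which are not in the list, had the same samples at the top and at the bottom. Sample 1 was the only female of each group, so its place at the top cannot be told apart from sex. The summed level of the list was 48550, 41440 and 31933 in the CtrlCre samples and 68939, 49091 and 37432 in the Cpt1bcKO samples. Of these sums, *Pdk4* alone gave 5605, 3909 and 1573 in the CtrlCre samples and 21655, 8824 and 5458 in the Cpt1bcKO samples. The rise of the sum between the groups therefore lay mostly in this gene. The part of this spread in the differences of *Angptl4* and *Ucp3* was not tested.

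**Figure D4:**
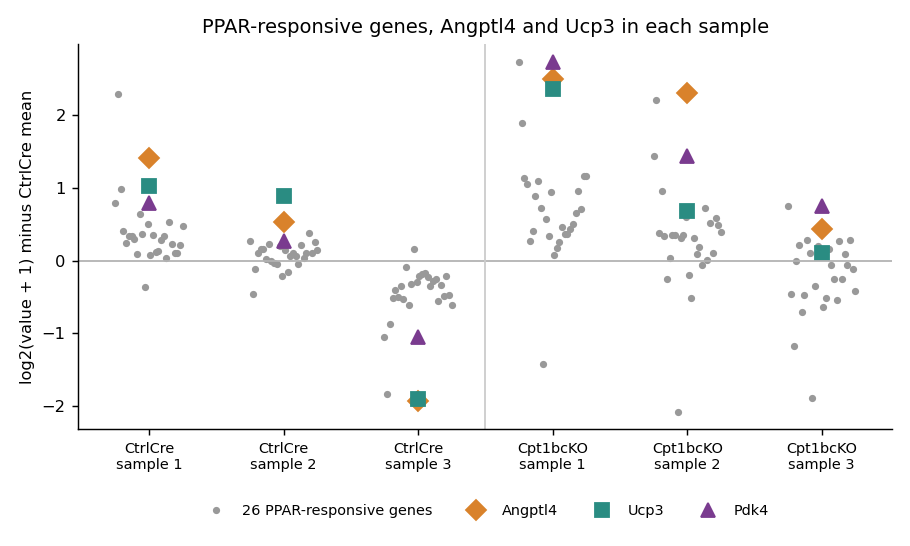
Log2(value + 1) of each gene minus its CtrlCre mean in the 6 samples, for 26 PPAR-responsive genes, which include *Pdk4*, and for *Angptl4* and *Ucp3*. *Angptl4*, *Ucp3* and *Pdk4* are in colour and the other genes in grey. Most genes are highest in sample 1 and lowest in sample 3 of both groups, and the grey point far below 0 in the Cpt1bcKO samples is *G0s2*.

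Between the groups, 21 of these 26 genes lay above and 5 below 0, with a median log2 difference of 0.28. Of the 26, 5 were higher and 1 lower at an unadjusted p under 0.05, where 6.66% and 7.22% of all genes stood. Only *G0s2*, an inhibitor of the triglyceride lipase of lipid droplets, passed the adjusted threshold, and it fell. It had 237, 147 and 99 normalized counts in the CtrlCre samples and 56, 35 and 40 in the Cpt1bcKO samples, a log2 difference of −1.80 (standard error 0.314, adjusted p = 0.0203 from limma). *Pdk4*, which restrains glucose oxidation and is named after its values were seen, had 5605, 3909 and 1573 and then 21655, 8824 and 5458 normalized counts. Its log2 difference was 1.64 with an adjusted p of 0.179, and of 0.00918 with sex in the fit. The median of the list moved with single samples in both directions, to 0.08 without CtrlCre 3 and 0.10 without Cpt1bcKO 1, and to 0.50 without Cpt1bcKO 3, 0.39 without CtrlCre 1 and 0.37 without CtrlCre 2. The 5 genes higher at an unadjusted p under 0.05 became 2 without CtrlCre 3 or Cpt1bcKO 2, and 3 without CtrlCre 2 or Cpt1bcKO 1. They became 8 without CtrlCre 1, 10 without Cpt1bcKO 3, 9 with scaling to the total and 8 with sex in the fit. Of all 11364 genes tested, 757 were higher at this level with all samples. That count was 660 without CtrlCre 3, 459 without Cpt1bcKO 2, 695 without CtrlCre 2 and 1032 without Cpt1bcKO 1. It was 631 without CtrlCre 1, 620 without Cpt1bcKO 3, 1221 with scaling to the total and 1087 with sex in the fit. The split of the list around 0 was 15 above and 11 below without Cpt1bcKO 1. Without CtrlCre 1, CtrlCre 2 or either of Cpt1bcKO 2 and 3, *G0s2* had an adjusted p of 0.0563 to 0.119.

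The partners of lipoprotein lipase (11 tested, median log2 difference 0.23, and 0.10 without Cpt1bcKO 3) held no gene past the adjusted threshold and 2 that were higher at an unadjusted p under 0.05. These were *Apoe*, an apolipoprotein of remnant particles, with 79, 63 and 120 and then 164, 131 and 157 normalized counts (log2 difference 0.82, adjusted p = 0.159 from limma), and *Pcsk5*, a proprotein convertase, with 8 to 12 and 17 to 23. Both had groups that did not overlap. The count of 2 became 1 without CtrlCre 3 or Cpt1bcKO 2. It became 3 without CtrlCre 2, with scaling to the total and with sex in the fit. Among 7 lipoprotein receptors and sorting genes (median 0.27, and 0.41 without CtrlCre 3), 1 was higher and 2 were lower at an unadjusted p under 0.05, and none passed after adjustment. *Lrp4* had 94, 82 and 96 normalized counts in the CtrlCre samples and 23, 39 and 52 in the Cpt1bcKO samples. Its log2 difference was −1.30 with an adjusted p of 0.0612 from limma, and of 0.0165 with sex in the fit. *Sort1*, a sorting receptor that also traffics lipoprotein lipase, went from 142 to 186 normalized counts in the controls to 91 to 124, with a log2 difference of −0.60 (adjusted p = 0.187 from limma).

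Of 9 other genes of fatty acid entry none passed the adjusted threshold, and their median of −0.13 turned to 0.08 without CtrlCre 3 and was −0.25 without CtrlCre 1. *Cav3*, the caveolin of muscle, had 530, 378 and 444 normalized counts and then 441, 224 and 292 (log2 difference −0.54, adjusted p = 0.349 from limma). *Got2*, a mitochondrial aminotransferase also described as a membrane fatty acid-binding protein, had 937, 681 and 643 and then 765, 428 and 421 (log2 difference −0.52, adjusted p = 0.368, and 0.0285 with sex in the fit). In both genes the groups overlapped through Cpt1bcKO 1. Without single samples the log2 difference ranged from −0.81 to −0.36 for *Got2* and from −0.80 to −0.31 for *Cav3*, lowest without Cpt1bcKO 1. Without that sample the adjusted p from limma was 0.0418 for *Got2* and 0.0539 for *Cav3*. In male samples only it was 0.0491 for *Got2* and 0.0964 for *Cav3*. Of 8 other lipid-binding genes (median 0.08, and −0.02 without Cpt1bcKO 1) none passed the adjusted threshold. *Acbd5*, an acyl-CoA-binding protein of peroxisomes, had a log2 difference of −0.34 (adjusted p = 0.424 from limma).

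The 3 other uncoupling carriers tested had a median of −0.17, with none under an unadjusted p of 0.05. The direction rested on Cpt1bcKO 3, without which 2 of the 3 lay above 0 and the median was 0.23, and without CtrlCre 1 the median was −0.60. Of these, *Slc25a27* had a log2 difference of −0.60 (adjusted p = 0.495 from limma) and *Slc25a30* one of −0.17 (adjusted p = 0.911). The 9 PPAR receptors and partners had a median of 0.07, which was −0.07 without Cpt1bcKO 1 and 0.19 without Cpt1bcKO 3. The coactivator *Ppargc1b* had 227, 183 and 157 normalized counts and then 221, 255 and 281 (log2 difference 0.42, adjusted p = 0.344 from limma), and the receptor *Rxra* a log2 difference of −0.28 (adjusted p = 0.523). Over the 7 lists, 10 of 73 tested genes (13.7%) were higher and 4 (5.48%) lower at an unadjusted p under 0.05, against 6.66% and 7.22% of all genes, and only *G0s2* passed after adjustment. The 10 became 5 without CtrlCre 3, 6 without Cpt1bcKO 2 and 16 with scaling to the total, and the 4 became 7 without Cpt1bcKO 1. The counts of all genes moved as well, from 757 higher and 821 lower of 11364 tested. Higher were 660 without CtrlCre 3, 459 without Cpt1bcKO 2 and 1221 with scaling to the total. Lower were 1230 without Cpt1bcKO 1.

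Some genes of the set are known from cells other than CMs, and markers of such cells varied among the samples. CtrlCre 1 was the lowest of the 6 samples for 11 of 12 endothelial markers, *Pecam1*, *Cdh5* and *Kdr* among them, against 19.3% of all genes tested, and for *Robo4* it was level with Cpt1bcKO 3. Their sum was 1662 in CtrlCre 1, 3162 and 3458 in the other controls and 3673, 3711 and 3187 in the Cpt1bcKO samples. The same sample was the lowest for *Lpl*, which CMs make, and for *Gpihbp1*, *Fabp4* and *Fabp5*. These 4 genes are set beside the markers because they share this lowest sample. No endothelial marker passed the adjusted threshold, and 2 of 12 were higher at an unadjusted p under 0.05. The 2 became 0 without Cpt1bcKO 2, 1 without CtrlCre 1 or Cpt1bcKO 3, and 3 without CtrlCre 2 or CtrlCre 3. The counts of all genes without each sample are given above. The median log2 difference of the 12 markers was 0.34, and 0.02 without CtrlCre 1. In such bulk samples fewer cells of a type and less RNA per cell cannot be told apart, and the part of these cells in the 4 genes was not tested.

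**Figure D5:**
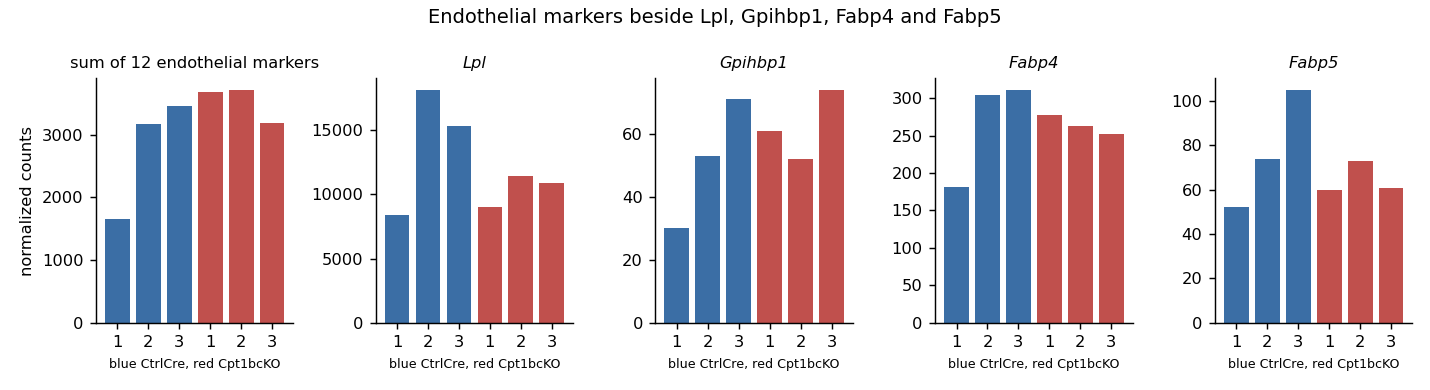
Summed normalized counts of 12 endothelial markers and the normalized counts of *Lpl*, *Gpihbp1*, *Fabp4* and *Fabp5* in samples 1 to 3 of CtrlCre (blue) and Cpt1bcKO (red), as bars from 0. CtrlCre 1 is the lowest bar in each panel, with 1662 for the marker sum.

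Mural markers summed to 566 in CtrlCre 1, 1519 and 1857 in the other controls and 1023 to 1474 in the Cpt1bcKO samples. The 5 fibroblast markers tested all were higher at an unadjusted p under 0.05, and *Col1a1* and *Lum* passed the adjusted threshold. The 5 became 3 without CtrlCre 1, Cpt1bcKO 1 or Cpt1bcKO 2, and 4 without CtrlCre 2 or CtrlCre 3. Without CtrlCre 2 or CtrlCre 3, 1 of the 5 passed the adjusted threshold, and none did without Cpt1bcKO 2. The list summed to 383 to 533 in the controls and 729 to 897 in the Cpt1bcKO samples. Macrophage markers summed to 99 to 156 and red cell markers to at most 20 in every sample, and the adipocyte markers *Adipoq*, *Plin1*, *Lep*, *Retn* and *Cfd* were not analysed here. The 8 CM markers all lay below 0, with a median log2 difference of −0.44, and none passed the adjusted threshold, with *Pln* and *Tnni3* at an unadjusted p under 0.05. With sex in the fit both passed, with adjusted p of 0.00152 and 0.00372 in limma. In that fit 6 of the 8 markers were lower at an unadjusted p under 0.05, as were 1280 of the 11364 genes tested. Without Cpt1bcKO 1, and in a fit to male samples, 2 markers passed the adjusted threshold. The part of these shifts in the values of the 10 genes was not tested.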

How the data were processed

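Total RNA of isolated adult CMs was made into stranded libraries and sequenced single-end. According to the submitters' processing notes and the study's methods, reads were trimmed with Trimmomatic (0.36), checked with FastQC (0.11.8), aligned with STAR (2.5.4b) to mm10 (GRCm38.p5) and counted with featureCounts (1.6.0), leaving out reads on several genes or regions. The annotation release and the use of strand in counting were not given in the sources used here. The deposited values are a score: read counts that the authors divided by a DESeq2 (1.14.1) size factor and rounded to whole numbers, so raw counts could not be tested. The table's columns of the authors' own comparison (mean, log2 fold change, p and adjusted p) were not used.

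Values were compared as log2(value + 1) in genes with at least 10 in at least 3 samples with limma (3.58.1 in R 4.3.3, lmFit and eBayes with a trend, two-sided), and p-values were adjusted by Benjamini-Hochberg over all 11364 genes tested, with a threshold of 0.05. On this scale the change of a gene with low values comes out too small. Each mouse is 1 sample, n = 3 per group, for which an exact permutation test cannot go below 0.1. The steps were tested on simulated data. The members and lists were chosen with earlier results of these data known. Named are all 10 genes, *Cpt1b*, and in each list the genes past the adjusted threshold or otherwise the 2 with the smallest unadjusted p. A gene that this rule names is not reported here. Coordinates are those of the deposited table, of which 4 of 10 were the same in GENCODE vM21. Promoters came from RefSeq. Alternatives were other scalings, pseudocounts, filters, prior variance, sex or the replicate number as a term, leaving out each sample, and, chosen after seeing the data, male samples only and all annotated exons as length.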

Additional observations from a re-analysis of the deposited data

How the results depend on the processing

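*Cpt1b* kept its direction in all 17 alternatives and its call in all but that with 1 prior variance for all genes (log2 difference −2.27, adjusted p = 0.0563); without single samples it ranged from −2.56 to −2.03. Genes called in the whole table numbered 75 higher and 103 lower. With scaling to the total the balance turned to 103 higher and 74 lower. They numbered 23 and 18 with 1 prior variance, 243 and 331 with sex as covariate, 116 higher in male samples only, and 19 to 150 higher and 23 to 179 lower when 1 sample was left out, lowest without Cpt1bcKO 2. No member was called in any alternative but the block for the replicate number. The member at an unadjusted p under 0.05 was lost with at least 10 in every sample (0, *Angptl4* not tested) and with 1 prior variance (0), and leaving out samples gave 0 to 1 higher and 0 to 1 lower. *Lpl* was the 1 lower member with sex as covariate and in male samples only. Other pathway genes called numbered 1, but 0 with 1 prior variance, 6 with sex as covariate, 2 in male samples only and 0 to 2 without single samples.

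With the replicate block, 249 genes were higher and 354 lower (5.31% of all), 1 member was called (*Angptl4*, adjusted p = 0.00805), 2 members were higher and 1 lower at an unadjusted p under 0.05, and 11 other pathway genes were called. Same-numbered samples deviated together with r of 0.376, 0.255 and 0.0684 across genes, and the samples numbered 3 correlated better with those numbered 2 (0.147 and 0.119) than with each other, so the numbers were not taken to pair the mice. Same-numbered samples do share sex, which the block takes up as well.

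Small differences turned sign. With scaling to the total, *Cd36* was 0.00381, *Fabp3* 0.0625 and *Vldlr* 0.0878, and *Vldlr* was 0.0212 with upper quartile scaling. In males only *Fabp4* was −0.26. Without single samples *Lpl* ranged from −0.68 to −0.13, *Cd36* from −0.36 to 0.17, *Fabp3* from −0.47 to 0.29, *Fabp4* from −0.22 to 0.16, *Fabp5* from −0.45 to 0.0531, *Slc27a1* from −0.11 to 0.27 and *Vldlr* from −0.0933 to 0.068. The causes were not tested. The intervals given show what 3 samples per group can resolve, and values near 10 rest on few reads.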
